A study of Mus musculus with 12 samples.

Results

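This account concerns 427 CREB binding sites of mouse liver that were called both after fasting and after re-feeding and that had another CREB site within 1000 bp. They were chosen from 7547 sites, the union of both deposited peak lists, and made up 5.66% of them. A site was taken when its name stood in both lists, its peak height was under 3 RPM (stacked reads normalized to the depth of the pool), its width was under 150 bp and the distance from its centre to the centre of any other listed site was at most 1000 bp. Sites that met the first 3 of these conditions numbered 3654, so 11.7% of them had a near neighbor (95% interval 10.7 to 12.8), and the other 3227 are called unclustered below. Because position, height, width and the calls chose the sites, all values below describe the lists and none was tested.

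The livers came from male C57BL/6J mice of 8 to 12 weeks, and chromatin was precipitated with an antibody to CREB-1 (sc-186) from whole liver, so hepatocytes and other liver cells were sampled together. In the fasted group, 5 mice had gone without food for 24 h and were taken 3 h after lights on. In the re-fed group, 5 mice had the same 24 h fast followed by 2 h of food and were taken 5 h after lights on. Every mouse of both groups had therefore fasted, and the clock time differed by 2 h between the groups. Peaks were called on pooled livers, and the lists analysed here hold 1 value per site. That value is the largest stack of reads within the peak in the pool of the fasted livers, also in the re-fed list, where all 4645 shared names carried the same height as in the fasted list. Heights moved in steps of 0.0236 RPM, the worth of 1 read of that pool. No height of a single mouse and no re-fed height stands in the lists, so differences between mice or between conditions were not tested here. Intervals of ratios cover counting error of reads only, and those of shares and medians take listed sites as if they were independent. Coordinates of sites are those of the mm8 build.

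CREB is a basic leucine zipper protein that binds the cAMP response element (CRE), a palindrome of which each arm can also bind CREB alone. Glucagon raises cAMP in the fasting hepatocyte, protein kinase A phosphorylates CREB, and the phosphorylated protein recruits CBP and p300 to target promoters, where CRTC coactivators also join it. Elements that lie close together are known from several CREB target promoters, and a ChIP peak marks the place of the protein on sonicated DNA rather than the letters it binds.

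The CRE letters stood in the promoters of some genes at which clustered sites were listed. The stretches printed here show what such a match looks like and were taken only from promoters that hold one, of genes with values given below. Only the 250 bp before each start were searched for them. No match was found there for Irs2, Wipi1, Znfx1, Bclaf1, Acbd7, 3110043O21Rik, Pnpla2, Por, Syvn1 and Arfgap3, among others. Each stretch shows the letters TGACG or CGTCA (a single arm of the palindrome on either strand, here called the short CRE) or TGACGTCA (the full CRE) in capitals, in the direction of the gene. They are RefSeq sequence of the GRCm38.p6 build and lie at chr2:32424193-32424232 (minus strand) for Slc25a25, chr2:167688875-167688914 (plus) for Cebpb, chr19:23141162-23141201 (plus) for Klf9, chr12:80945459-80945498 (plus) for Sfrs5, chr2:3332656-3332695 (minus) for Rpp38 and chr6:108828601-108828640 (plus) for Edem1.
Slc25a25: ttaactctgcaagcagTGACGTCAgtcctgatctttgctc
Cebpb: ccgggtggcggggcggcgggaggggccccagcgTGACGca
Klf9: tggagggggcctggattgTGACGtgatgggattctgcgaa
Sfrs5: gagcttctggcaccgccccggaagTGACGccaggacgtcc
Rpp38: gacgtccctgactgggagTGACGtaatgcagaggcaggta
Edem1: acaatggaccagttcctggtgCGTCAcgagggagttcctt

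Slc25a25 held the full palindrome 150 bp before 1 of its 3 transcription starts, and the 250 bp before its other starts held neither form, whereas the other printed genes held a short CRE. The short CRE began 7 bp before the start in Cebpb, 16 bp in Sfrs5, 19 bp in Edem1, 46 bp in Klf9 and 49 bp in Rpp38. Over all RefSeq promoter windows of the genes named at clustered sites, from 250 bp before to 50 bp after the start, 88 of 192 windows (45.8%) held a short CRE on either strand, an arm within a full CRE included. The same letters stood in 636 of 1313 windows (48.4%) of genes named at unclustered sites and in 6837 of 32851 windows (20.8%) of all genes. The full CRE stood in 6 of the 192 windows (3.12%), in 72 of the 1313 (5.48%) and in 588 of all (1.79%). For the short CRE the intervals of clustered and unclustered genes overlapped (38.9 to 52.9% and 45.7 to 51.1%) and lay above that of all windows. For the full CRE the share at clustered sites was the lower one, and with 6 windows its interval (1.44 to 6.65%) held the shares of both other sets. The builds differ, so whether a given peak covered a given window was not determined, and a match is a description of letters and not of binding.

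Neighboring sites mostly lay within 500 bp of each other. The median distance between a clustered site and its nearest neighbor was 435.5 bp (95% interval 410 to 465, n = 427 sites), with quartiles of 336 and 609.5 bp and a range of 258.5 to 1000 bp. Of the 427 sites, 125 (29.3%) had their neighbor at 250 to 350 bp, 137 (32.1%) at 350 to 500 bp, 106 (24.8%) at 500 to 750 bp and 59 (13.8%) at 750 to 1000 bp. The distances therefore crowded toward the short end, and 262 sites (61.4%) had a neighbor within 500 bp. None of the 427 had one closer than 250 bp. A shared site stands in both lists, so any neighbor shares a list with it. Its distance therefore cannot fall below the smallest spacing of that list. The smallest distance between any peaks of the fasted list was 217 bp and that of the re-fed list 266 bp, whereas a fasted-only and a re-fed-only peak came as close as 110 bp. At the outer limit, the pair on chromosome 7 at 44716907-44717040 and 44717909-44718038 was 1000 bp apart and was included. The nearest excluded sites were those of Atxn7l3 on chromosome 11 and of Lpin3 and Zhx3 on chromosome 2, with neighbors at 1020 and 1026 bp.

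**Figure D1:**
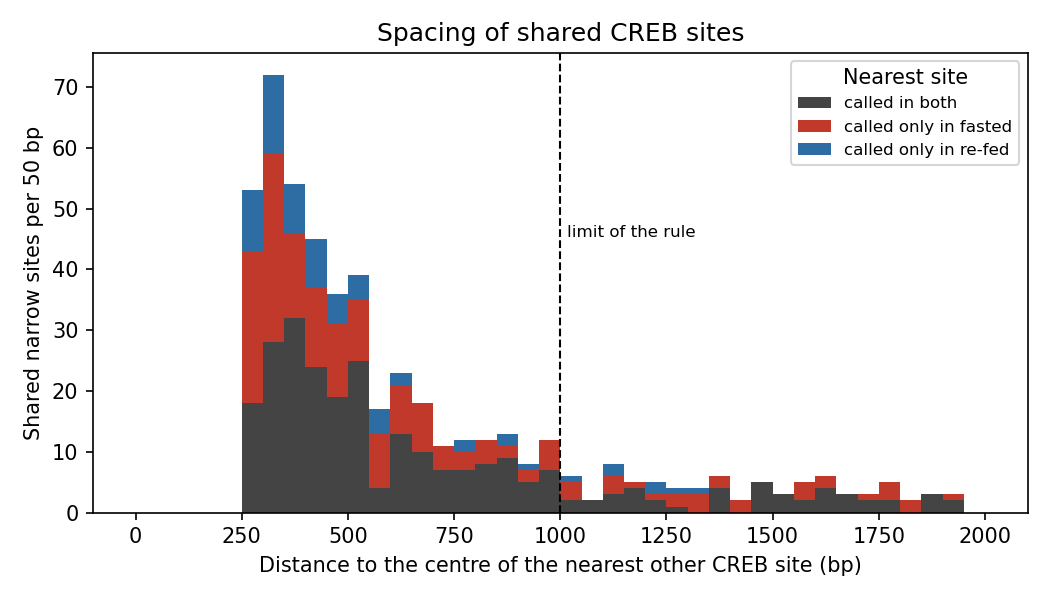
Histogram of the distance in bp from the centre of a shared site to the centre of the nearest other listed site. It covers the 505 shared sites under the same height and width limits with such a site within 2000 bp. Bars are stacked by whether that neighbor was called in both conditions, only in fasted or only in re-fed livers. A dashed line marks the 1000 bp limit. The bars begin above 250 bp and decline toward 1000 bp. The 427 clustered sites, up to the line, have a median of 435.5 bp.

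The closest pairs were spread over several chromosomes. On chromosome 17 a clustered site and a fasted-only site lay 258.5 bp apart, inside a larger group described below. On chromosome 15, both sites of a pair 266 bp apart were clustered shared sites, at 59477865 with 1.84 RPM (78 reads) and at 59478121 with 51 reads. At Fam100b on chromosome 11 a clustered site of 0.567 RPM (24 reads) lay 269 bp from a re-fed-only site of 0.519 RPM (22 reads). At Cbx8, which encodes a Polycomb chromodomain protein, the fasted-only neighbor at 272 bp was the higher site, with 1.82 RPM (77 reads) against 1.56 RPM (66 reads). At Adnp, a homeodomain chromatin factor, the clustered site had 1.65 RPM (70 reads) and its fasted-only neighbor at 272.5 bp 0.755 RPM (32 reads). Where the calls of these 5 pairs differed, the clustered site was the lower one at Cbx8 and on chromosome 17 and the higher one at Fam100b and Adnp.

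The sites formed 329 groups when every listed site within 1000 bp of another was joined, and these groups held 678 sites. Most, 311 (94.5%), were pairs, 16 had 3 sites and 2 had 4. In 123 groups (37.4%) every site was called in both conditions, 153 (46.5%) held a fasted-only site and 60 (18.2%) a re-fed-only site, and 7 (2.13%) held one of each kind. The median span from the first to the last centre was 444.5 bp and the longest was 1811 bp. Of the listed sites, 1035 in all had a neighbor within 1000 bp. The 608 that are not among the 427 were 363 fasted-only and 163 re-fed-only sites and 82 shared sites, of which 23 reached the height limit and 59 the width limit.

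Neither group of 4 sites has a gene name in the sheets used here, which name few unregulated genes on these chromosomes, and their distance to genes was not measured. The group on chromosome 17 at 31364570-31366503 spanned 1811 bp, with heights of 0.708, 0.708, 0.661 and 0.803 RPM along the chromosome, the second of them fasted-only. The group on chromosome 19 at 61280993-61282078 spanned 965.5 bp, with heights of 0.897, 1.25, 1.13 and 0.732 RPM (38, 53, 48 and 31 reads), the last of them fasted-only. In both groups, then, no site stood far above the others, and the fasted-only site lay within the range of the shared sites on chromosome 17 and below them on chromosome 19. Groups of 3 sites, picked out after their values were seen, gave other layouts. At Hexim1 on chromosome 11, an inhibitor of transcription elongation, clustered sites of 1.13 RPM (48 reads) and 0.779 RPM (33 reads) lay on either side of a fasted-only site of 0.614 RPM (26 reads). At Zbtb7a on chromosome 10, a zinc finger repressor, the clustered site of 0.803 RPM (34 reads) lay between fasted-only sites of 0.637 RPM (27 reads) each. At Ppp2r5a on chromosome 1, a regulatory subunit of protein phosphatase 2A, the clustered site of 1.35 RPM (57 reads) lay between fasted-only sites of 0.519 RPM (22 reads) and 1.06 RPM (45 reads).

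**Figure D2:**
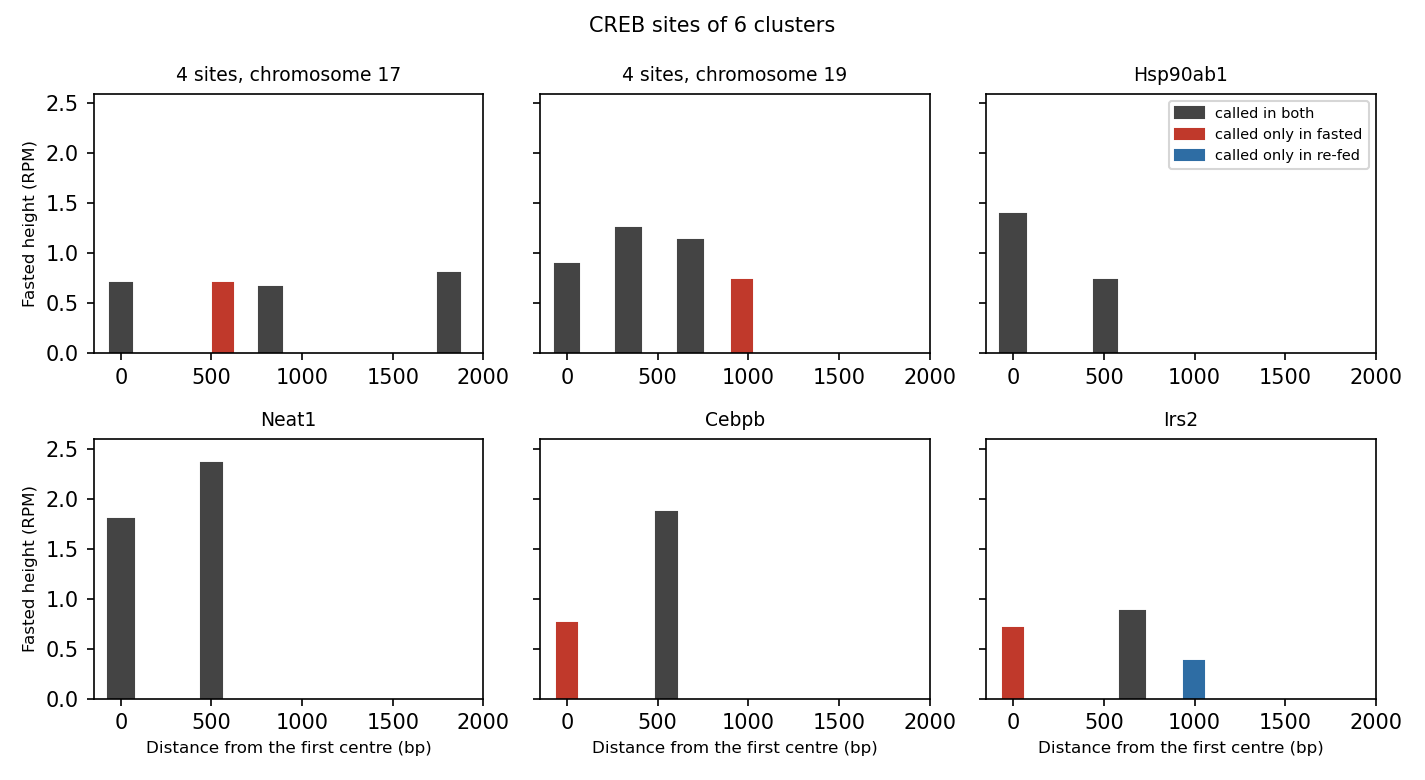
Maps of 6 groups of CREB sites, with distance from the first centre in bp on the horizontal axis and fasted height in RPM on the vertical axis, each bar covering the interval of a site and colored by the condition in which it was called. The groups of 4 sites on chromosomes 17 and 19 have bars of like height, Hsp90ab1 and Neat1 have a pair of shared sites each, Cebpb has a fasted-only neighbor, and Irs2 has a neighbor of each kind.

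The nearest neighbor was called in both conditions for 218 of the 427 sites (51.1%, interval 46.3 to 55.8), in fasted livers only for 150 (35.1%, 30.8 to 39.8) and in re-fed livers only for 59 (13.8%, 10.9 to 17.4). Among all 7547 listed sites these classes made up 61.5%, 29.0% and 9.43%. Of the 218 shared neighbors, 184 (84.4%) were themselves clustered sites, 25 were too wide and 9 too high to be counted. The median distance was 467 bp to a neighbor called in both conditions, 410.75 bp to a fasted-only and 381.5 bp to a re-fed-only neighbor. Thus about every other clustered site that was called in both conditions had, within 1 kb, a neighbor that passed the call in one condition alone.

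Groups that held a fasted-only and a re-fed-only site beside the shared one included 4 with a named gene, and the genes other than Tnfaip1 and Bhlhe40 were picked out after their values were seen. At Irs2 on chromosome 8, which encodes an adaptor of the insulin receptor, the shared site at 11009539-11009672 had 0.873 RPM (37 reads). Its fasted-only neighbor at 11008894-11009003 had 0.708 RPM (30 reads) and its re-fed-only neighbor at 11009892-11009999 had 0.378 RPM (16 reads). At Clk1, a kinase of splicing factors, the shared site at chromosome 1, 58368567-58368678, had 2.67 RPM (113 reads), against 1.09 RPM (46 reads) at the fasted-only and 0.449 RPM (19 reads) at the re-fed-only neighbor. At Bhlhe40, a repressor of the circadian clock, the shared site at chromosome 6, 108626166-108626298, had 0.685 RPM (29 reads), with 0.496 RPM (21 reads) at the fasted-only and 0.378 RPM (16 reads) at the re-fed-only site. At Tnfaip1, a ubiquitin ligase adaptor, and Ift20, a ciliary transport protein, on chromosome 11, the shared site at 78351669-78351789 had 0.732 RPM (31 reads), the re-fed-only site 0.449 RPM (19 reads) and the fasted-only site 0.590 RPM (25 reads). In 6 of the 7 groups, these 4 included, the shared site was the highest and the re-fed-only site the lowest in the fasted pool. A re-fed-only site missed the call in fasted livers, so this order is in part set by the classes. The exception was an unnamed group on chromosome 19, where the fasted-only site at 6363346-6363455 had 1.32 RPM (56 reads), the re-fed-only site 0.850 RPM (36 reads) and the shared site at 6363942-6364059 0.661 RPM (28 reads). The sites called in a single condition were 113 bp apart at Bhlhe40 and 159 bp at Tnfaip1 and Ift20, closer than any peaks of the same list. They were 270 bp apart at Clk1 and 997 bp at Irs2, and in 4 of the 7 groups the distance was within 250 bp.

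The clustered sites were about as high as the unclustered ones. Their median fasted height was 0.991 RPM (95% interval 0.944 to 1.06), or 42 reads, with quartiles of 0.732 and 1.49 RPM and a range of 0.330 to 2.95 RPM. Unclustered shared sites had a median of 0.944 RPM (0.921 to 0.968), with quartiles of 0.661 and 1.51 RPM, so the intervals overlapped between 0.944 and 0.968 RPM. The median width was 120 bp in both. Fasted-only sites were all 110 bp and re-fed-only sites all 2 bp narrower, whereas shared sites, merged from both calls, were 110 to 218 bp wide before the limit was applied. The highest clustered sites were 3 of 2.95 RPM (125 reads each), on chromosome 9 at 13577510-13577626 and 119171087-119171197 and on chromosome 6 at 124896945-124897054. The site of Eif1, a factor of start codon selection, followed with 2.88 RPM (122 reads), and a site on chromosome 9 at 48247262-48247378 had 2.81 RPM (119 reads). The lowest was on chromosome X at 6998575-6998721 with 0.330 RPM (14 reads), beside a neighbor of 1.16 RPM (49 reads). Another 4 had 0.449 RPM (19 reads each), among them the sites of Arfgap3, a regulator of COPI vesicles, and of Rabif. The nearest sites beyond the limits were those of Atp5d and a site on chromosome 7 with 3.02 RPM, against 2.95 RPM inside, and the sites of Eif5b with Txndc9 and a site on chromosome 12 with a width of 150 bp, against 149 bp inside.

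Whether a clustered site was higher or lower than its neighbor went with the call of the neighbor, which, like height, is part of how the sites were chosen. Of the 427 sites, 293 (68.6%) were higher than their nearest neighbor, 12 were equal to it and 122 (28.6%) were lower. The lower share was 104 of 218 (47.7%) beside a neighbor called in both conditions, 14 of 150 (9.33%) beside a fasted-only and 4 of 59 (6.78%) beside a re-fed-only neighbor. Because 184 of the 218 shared neighbors were clustered sites themselves, most of those pairs were counted from both ends, which sets a share near 50% by construction. The neighbors' own median heights were 0.944, 0.614 and 0.496 RPM in that order. A site called in one condition alone is one that missed the call in the other, so the low height of these neighbors is in part set by how they were classed, and the total of 293 higher sites rests mainly on them.

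**Figure D3:**
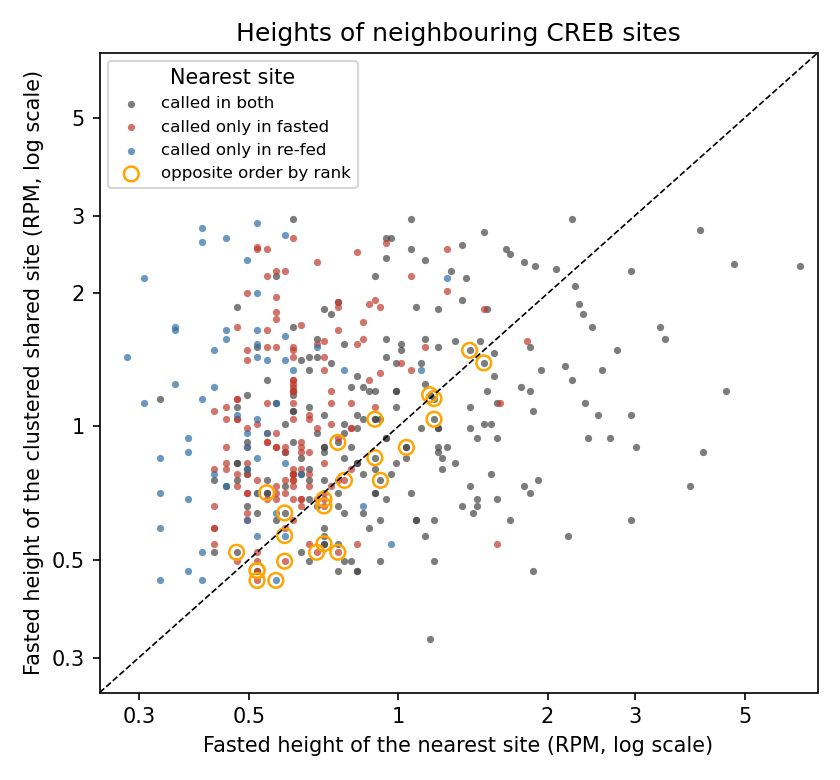
Fasted height of each of the 427 clustered shared sites against that of its nearest site, both in RPM on log axes, with the dashed line at equal heights, points colored by the call of the nearest site and rings around pairs whose order by rank is opposite to their order by fasted height. Points with a fasted-only or re-fed-only neighbor lie mostly above the line, those with a shared neighbor lie on both sides, and the rings lie near the line.

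The 427 sites made 337 distinct nearest pairs. The higher site of a pair had a median of 1.61 times the reads of the lower (quartiles 1.26 and 2.24), and in 162 pairs (48.1%) the binomial interval of this ratio excluded 1. In 117 pairs (34.7%) the ratio was at least 2. The median ratio was 1.46 in 128 pairs of shared sites, 1.58 in 150 pairs with a fasted-only site and 2.19 in 59 pairs with a re-fed-only site. The interval excluded 1 in 55, 67 and 40 of these pairs, in that order. The low height of sites called in 1 condition is in part set by their class. Acbd5 and Slc35b1 were picked out after their values were seen. The largest ratio was that of Acbd5, which encodes a peroxisomal acyl-CoA binding protein, where the shared site at chromosome 2, 22890992-22891107, had 2.17 RPM (92 reads) and the re-fed-only site 873 bp away 0.307 RPM (13 reads). This made a ratio of 7.08 (interval 3.94 to 13.8). At Eif1 the shared site's 122 reads stood against 22 at its re-fed-only neighbor, a ratio of 5.55 (3.50 to 9.17). At Slc35b1, a transporter of the endoplasmic reticulum, the re-fed-only neighbor had 1.25 RPM (53 reads) against 2.17 RPM (92 reads) at the clustered site, a ratio of 1.74 (1.23 to 2.48).

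The number in a peak's name ranks all 7547 sites by the mean of the fasted and re-fed heights, from the highest mean down, and gives a view of the re-fed pool without a re-fed height. The study averaged normalized heights over replicates, and whether the ranked mean contains the pooled fasted height of the lists was not checked. Statements below on re-fed heights hold only if it does. In that case, a site with the higher fasted height but the lower mean has the lower re-fed height. The re-fed gap is then at least the fasted gap. Such an opposite order was seen in 19 of 337 pairs (5.64%, interval 3.64 to 8.64), in 9 of 128 pairs of shared sites, 8 of 150 with a fasted-only site and 2 of 59 with a re-fed-only site. These pairs were close in height, with ratios of 1.02 to 1.45, and in 0 of the 19 did the interval of the ratio exclude 1. The mean contains a fasted height, so a kept order in pairs of unlike height is largely built in. Only the opposite pairs, and the 10 pairs tied in fasted height, can say something of the re-fed pool.

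At Tsc1 on chromosome 2, which encodes hamartin, a brake on mTORC1, the fasted-only site at 28462897-28463006 had 0.755 RPM (32 reads) and rank 5097. The shared site 282 bp away, at 28463176-28463291, had 0.519 RPM (22 reads) and rank 4390. Under the condition above, its re-fed height was higher than the neighbor's by at least 0.236 RPM, the largest such gap of the 19. At 3110043O21Rik on chromosome 4 both sites were clustered shared sites, the one at 35415446-35415570 with 1.04 RPM (44 reads) and rank 2349 and the one at 35414968-35415111 with 0.897 RPM (38 reads) and rank 2129. Pairs of clustered sites on chromosome 7 (60122820 with 0.708 RPM and rank 3778, 60123298 with 0.543 RPM and rank 3483) and on chromosome 17 (34005975 with 0.921 RPM and rank 2506, 34006427 with 0.755 RPM and rank 2250) were opposite too. A fasted-only site on chromosome 9 of 0.685 RPM (29 reads) ranked below its clustered neighbor of 0.519 RPM (22 reads), and on chromosome 6 a re-fed-only site of 0.567 RPM (24 reads, rank 5331) stood beside the clustered site at 113272122-113272255 with 0.449 RPM (19 reads, rank 5093). That re-fed-only site was thus the higher one in the fasted pool and, under the same condition, the lower one in the re-fed pool. Edem1, which trims mannose from misfolded glycoproteins, had equal heights of 0.685 RPM (29 reads) at its shared and fasted-only sites, with ranks of 3499 and 5663. With fasted heights tied, the shared site was, under that condition, the higher one in the re-fed pool. Edem1 was picked out after its values were seen.

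Set beside the 50 unclustered shared sites of nearest rank, clustered sites had a median log2 ratio of fasted heights of 0.00 (quartiles -0.10 and 0.07, n = 427). The same ratio of unclustered sites had a median of 0.00 with quartiles of -0.09 and 0.09. It was above 0 in 44.3% of clustered and 46.6% of unclustered sites. The medians were 0.00 with a shared neighbor, 0.00 with a fasted-only and 0.01 with a re-fed-only neighbor. The rank contains the fasted height and all these sites were called in both conditions, so a median near 0 is largely set by the matching, and nothing is read from it about the neighbors.

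Gene names were available for 162 of the 427 sites (37.9%), from sheets of the study that were used as labels only and that cover all bound genes of a few chromosomes and the fasting-regulated genes of all. Of the clustered sites, 26 (6.09%, interval 4.19 to 8.77) were named for a gene on the sheet of genes higher in fasted livers, in 20 groups, against 111 of 3227 unclustered sites (3.44%, 2.86 to 4.13). For the sheet of genes lower in fasted livers the counts were 18 (4.22%, 2.68 to 6.56) and 132 (4.09%, 3.46 to 4.83). These sheets were made by the study from its own expression data, and nearby sites carry the same name, so the counts are not independent.

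On these sheets, 9 loci had 2 clustered sites each. Genes of RNA handling were among them. Sfrs5, a splicing factor, had 2.45 RPM (104 reads) at chromosome 12, 81864279-81864398, and 1.68 RPM (71 reads) at 81864983-81865098, a ratio of 1.46 (1.07 to 2.01). Neat1, the long noncoding RNA of nuclear paraspeckles, had 1.79 RPM (76 reads) at chromosome 19, 5845463-5845603, and 2.36 RPM (100 reads) at 5845975-5846090, a ratio of 1.32 (0.967 to 1.80) that was within counting error. Bclaf1, a nuclear protein of transcription and splicing, had 1.06 RPM (45 reads) and 0.708 RPM (30 reads) on chromosome 10, with an interval of the ratio of 0.924 to 2.47. Znfx1, a zinc finger helicase gene listed with the noncoding RNA genes 1500012F01Rik and Snord12, had the most unequal sites, 0.567 RPM (24 reads) at chromosome 2, 166753937-166754061, and 2.20 RPM (93 reads) 369 bp further on, a ratio of 3.88 (2.45 to 6.35). Of these 4 loci, Sfrs5 and Znfx1 had sites that differed beyond counting error.

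The other loci covered protein folding, autophagy and RNA enzymes. Hsp90ab1, a cytosolic HSP90 chaperone, had 1.39 RPM (59 reads) at chromosome 17, 45036882-45037023, and 0.732 RPM (31 reads) at 45037400-45037525, a ratio of 1.90 (1.21 to 3.04). Wipi1, which acts in autophagosome formation, had 0.755 RPM (32 reads) and 0.661 RPM (28 reads) 500 bp apart on chromosome 11, a ratio of 1.14 (0.667 to 1.97). Acbd7 and Rpp38, the latter a protein of ribonuclease P, shared 0.755 RPM (32 reads) and 0.708 RPM (30 reads) 423.5 bp apart on chromosome 2, a ratio of 1.07 (0.628 to 1.82). Crcp, a protein of RNA polymerase III, had 0.708 RPM (30 reads) and 0.543 RPM (23 reads) 518 bp apart on chromosome 5, a ratio of 1.30 (0.733 to 2.35). Of these 4 only the sites of Hsp90ab1 differed beyond counting error. Over all 9 loci, counting 3110043O21Rik above, the pairs were 369 to 702 bp apart.

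Of 28 genes named in the study's text, 15 had a named site by the sheets and 3, namely Cebpb, Hdlbp and Tnfaip1, a clustered one. Hdlbp and Tnfaip1 are named there because a neighboring site was listed as differing between the conditions and noted as next to another peak, so this count is not set against other genes. Camta1, a calmodulin-binding transcription activator, is named there in the same way but carries no name in the sheets, and is left out of the count. Its fasted-only site on chromosome 4 at 150448403-150448512 had 0.897 RPM (38 reads) and lay 465 bp from a clustered site at 150448859-150448986 with 1.11 RPM (47 reads), a ratio of 1.24 (0.789 to 1.95) within counting error. Cebpb, a leucine zipper factor of the hepatic fasting response, had 1.86 RPM (79 reads) at chromosome 2, 167380063-167380176, and a fasted-only site of 0.755 RPM (32 reads) 547 bp away, a ratio of 2.47 (1.62 to 3.85). At Hdlbp, an RNA-binding protein of the secretory apparatus, the fasted-only neighbor was the higher site in the gene body on chromosome 1, with 1.61 RPM (68 reads) against 1.13 RPM (48 reads), a ratio of 1.42 (0.965 to 2.10). The clustered site was thus the higher one at Cebpb and the lower one at Hdlbp, although at Hdlbp the difference was within counting error.

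Metabolic and secretory genes among the remaining named sites were chosen after their values were seen. Klf9, a glucocorticoid-responsive transcription factor, had 1.42 RPM (60 reads) against 0.543 RPM (23 reads) at a re-fed-only site, a ratio of 2.61 (1.59 to 4.42). Slc25a25, a mitochondrial carrier of ATP-Mg and phosphate, had 1.61 RPM (68 reads) against 0.590 RPM (25 reads) at a re-fed-only site 595 bp away, a ratio of 2.72 (1.70 to 4.49). Pnpla2, the adipose triglyceride lipase, shares its site with Slc25a22 and had 1.70 RPM (72 reads) against 0.637 RPM (27 reads) at a fasted-only site, a ratio of 2.67 (1.69 to 4.32). These ratios are above the median of all pairs, 1.61, and as the loci were picked by their values they stand for themselves only. Syvn1, a ubiquitin ligase of the endoplasmic reticulum, had 1.27 RPM (54 reads) against 0.543 RPM (23 reads) at a shared site too wide to be counted. Cyp51, a demethylase of cholesterol synthesis, had 1.39 RPM (59 reads) against 1.02 RPM (43 reads) at a fasted-only site, a ratio of 1.37 (0.911 to 2.08) within counting error. Por, the electron donor of microsomal P450 enzymes, had 0.685 RPM (29 reads) against 0.637 RPM (27 reads).

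Genes of the CREB programs were read against all gene names, of which 155 of 2654 with a site of any kind (5.84%) had a clustered one. Of 10 gluconeogenic genes, 7 had a named site and 0 a clustered one. Of 15 genes of cAMP feedback and the CREB family, 7 had a named site and 0 a clustered one. The counts were 17 and 0 of 21 genes of endoplasmic reticulum stress and chaperones, 3 and 0 of 6 genes of the urea cycle and 5 and 1 of 12 circadian genes, the last being Bhlhe40. With 3 to 17 genes a list, counts of 0 or 1 are near that share, names were incomplete and sites of 3 RPM or more were left out by the rule, so nothing particular to these lists is read from them. Sites of chromosome 18 were not named, so any gene of these lists on it could not be counted as having a clustered site. Edem1 and Syvn1, which act in quality control of the endoplasmic reticulum, and the chaperone Hsp90ab1 had clustered sites and are not in the list of 21 genes.

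Clustered sites lay on 20 chromosomes, and their share of the shared sites under the same limits differed between chromosomes. It was highest on chromosome 17 with 47 of 209 sites (22.5%, interval 17.4 to 28.6), followed by chromosome 19 with 25 of 136 (18.4%) and chromosome 11 with 46 of 294 (15.6%). The lowest share was on chromosome 3, with 10 of 170 (5.88%), and chromosome Y had 0 of 4. Without chromosome 17 the share over the genome was 380 of 3445 sites (interval 10.0 to 12.1%). On that chromosome the stretch from 33 to 36 Mb, picked out after its counts were seen, held 18 clustered sites in 11 groups, 37.5% of its 48 shared sites (25.2 to 51.6), and the rest of the chromosome 29 of 161 (12.8 to 24.7%). This stretch also held the listed site of Hspa1a, a heat shock gene of the major histocompatibility complex. Another site at 1000 to 10000 bp was listed for 14.8% of clustered and 13.7% of unclustered sites, and another at 10000 to 100000 bp for 74.0% and 66.7%. The intervals of these shares overlapped in the near range (11.7 to 18.4% and 12.6 to 14.9%) and did not in the far range (69.6 to 77.9% and 65.0 to 68.3%).

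**Figure D4:**
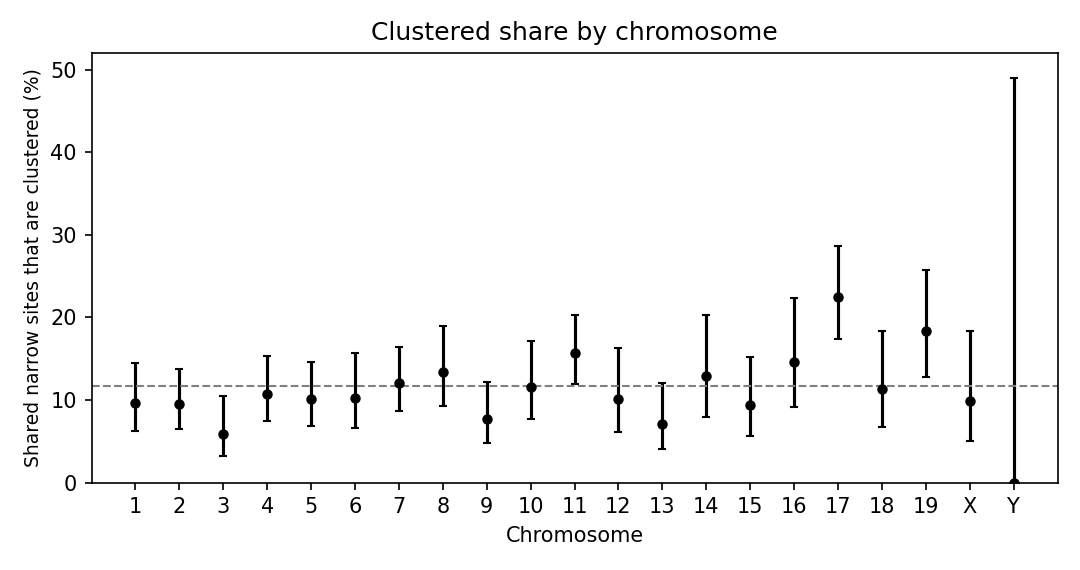
Percent of shared sites under the height and width limits that were clustered, by chromosome, with Wilson 95% intervals as error bars. Chromosome 17 has the highest share with 22.5%, and its interval lies above the share of all chromosomes, 11.7%.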

How the data were processed

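CREB ChIP-seq reads of 5 fasted and 5 re-fed livers had been mapped by the authors to mm8 with Eland, redundant reads discarded within each replicate, and the replicates pooled. The authors called peaks with HOMER (3.0 in the submitters' processing notes) at a 5% FDR against pooled inputs, kept those called in every pool of 4 livers, merged the conditions and kept sites with a mean height above 0.35 RPM, reads being extended to 108 bp. The deposited signal is this peak height in RPM, 1 value per site. The single GR and CEBPB libraries were left out.

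The lists were joined by peak name. Distances ran between interval centres, and groups joined sites within 1000 bp. Reads were height divided by the worth of 1 read. Starts were raised by 1 to count from 1. The order of the ranks was checked against the study's peak table, of which no value is given. Shares have Wilson 95% intervals and medians order-statistic intervals, which take sites or promoter windows as independent, although neighbors stand in the same groups. Ratios have exact binomial intervals, which cover counting error only and take reads as independent molecules, which they are not. No test was made, since only the deposited lists were analysed, with 1 pooled height per site, and sites are not replicates of a liver. The study's own heights per liver were not used here. The scripts were tested on simulated lists and run in Python 3.11.15 with scipy 1.17.1, matplotlib 3.10.9, pandas 2.3.3 and numpy 2.4.6.

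The sites, gene lists and alternatives were chosen with earlier results of these data known. Sites were named by rule, namely groups of 4 or more, the 5 highest, the 5 lowest, the 5 closest pairs, the 5 opposite pairs of largest ratio, sites of genes in the study's text or the gene lists, regulated genes with the most sites (up to 10) and sites next to each limit. Others are marked as chosen after their values were seen, and chromosome 18 was counted but not named. Gene names came from the study's sheets, used only in part. All 155 names at clustered sites and 1244 of 1254 at unclustered sites not named among them matched RefSeq genes, with promoter windows for 137 and 1041 genes. The sequence of the sites themselves was not analysed, as no mm8 genome was used.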

Additional observations from a re-analysis of the deposited data

How the results depend on the processing

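Of 62 alternative values under 14 settings, 48 kept within their interval, 14 moved and 0 reversed. The clustered share was 7.17% with a window of 500 bp, 13.8% with 2000 bp and 6.13% (224 sites) when only neighbors called in both conditions were allowed. The median distance was 353 bp, 491.5 bp and 468.25 bp under the same settings, 319 bp between interval edges and 409.5 bp for sites at or above the median height of 0.968 RPM. The window, the distance measure and the allowed neighbors set these values by construction, except the 409.5 bp, for which only a lower height limit was added. With neighbors called in both conditions only, the nearest neighbor was shared for 100% of sites by construction, and 48.2% of the sites were lower than it. Sites at or above the median height had a median of 1.44 RPM by construction, 17.2% of them were lower than their neighbor, and 2.02% of their pairs had an opposite order by rank. Among 189 pairs at least 1.5-fold apart the opposite order was seen in 0%, which allows up to 1.99% by the Wilson interval. No paired analysis was possible because the groups are different mice and the lists analysed here give pooled heights only, and leaving out each mouse in turn was not done, since only the lists were analysed here. Depth limits single pairs, since 1 read is worth 0.0236 RPM and the lowest sites rest on 14 to 19 reads.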
